A study of Mus musculus with 4 samples.

Results

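The S100 genes encode a family of small calcium-binding proteins, and 10 of them are described here in the mouse retina after deletion of Nrl in the adult animal: S100a1, S100a3, S100a4, S100a6, S100a8, S100a9, S100a10, S100a11, S100a13 and S100b. They were taken by name from the 19421 genes measured, and each was read from its probe set, or from the brighter one where it had more than 1. The set was chosen by gene family around S100a6, which was selected on its log2 difference between the genotypes on these same arrays, so its own difference is given as a description, its place among the called genes is part of how it was selected and supports nothing, and its paralogs are set against it. The 7 other S100 genes on the array, S100a2, S100a5, S100a7a, S100a14, S100a16, S100g and S100z, were added for comparison, which makes 17 S100 genes in all.

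Nrl is the transcription factor that specifies rod photoreceptors. The knockout mice were Nrlflox/flox; CAG-CreERTM and the controls Nrlflox/+; CAG-CreERTM, so the controls carried 1 floxed allele beside an intact one. All mice of both groups received 4-hydroxytamoxifen, which switches on the Cre, by intraperitoneal injection on each of postnatal days 42 to 44, and retinas were taken at day 63, 19 days after the last injection. The CAG promoter is active in most cell types, so recombination was not limited to rods, and no source used here states the share of cells that lost Nrl. Each genotype had 2 arrays, and each array held RNA pooled from the 4 retinas of 2 animals.

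S100 proteins are built around a pair of EF hands, the helix-loop-helix motif that binds calcium, and most work as dimers that change shape when calcium enters the cell and then grip a partner protein. Annexins, cytoskeletal proteins and enzymes are common partners. Some members are also released from cells and act on surface receptors such as RAGE and TLR4. In nervous tissue S100B is best known from astrocytes and other glia, S100A6 (calcyclin) is made by glia and many dividing or stressed cells, and S100A8 and S100A9 together form calprotectin, the abundant protein of neutrophils and monocytes.

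Most of the family lies together on chromosome 3, where 14 of the 17 genes are found, with S100b on chromosome 10, S100z on 13 and S100g on X. Promoter sequence from RefSeq (GRCm38.p6) was matched for 9 of the 10 genes, all but S100a10. The 250 bases before the transcription start are printed 5′ to 3′ for 3 genes: S100a6, whose level differed most, S100a4, its close neighbour in the cluster, and S100b, whose level hardly differed. Capitals mark the matches to the motifs searched.
S100a6, chr3:90612644-90612893, plus strand: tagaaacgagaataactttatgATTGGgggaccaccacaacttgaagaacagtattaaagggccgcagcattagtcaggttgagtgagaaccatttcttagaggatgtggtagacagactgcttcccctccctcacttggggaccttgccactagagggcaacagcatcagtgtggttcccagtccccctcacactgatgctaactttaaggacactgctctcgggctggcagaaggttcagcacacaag
S100a4, chr3:90603520-90603769, plus strand: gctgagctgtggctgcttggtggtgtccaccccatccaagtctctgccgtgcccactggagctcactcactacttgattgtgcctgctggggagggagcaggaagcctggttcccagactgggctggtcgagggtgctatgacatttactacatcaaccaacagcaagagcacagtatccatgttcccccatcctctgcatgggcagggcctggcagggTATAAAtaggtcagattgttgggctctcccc
S100b, chr10:76253586-76253835, plus strand: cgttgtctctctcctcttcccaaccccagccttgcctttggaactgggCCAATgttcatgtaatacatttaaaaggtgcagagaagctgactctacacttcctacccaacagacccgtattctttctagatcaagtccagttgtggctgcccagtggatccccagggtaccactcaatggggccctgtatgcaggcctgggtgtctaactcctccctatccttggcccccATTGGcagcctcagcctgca
The motifs were the TATA box (TATAAA), the CCAAT box (CCAAT), the GC box (GGGCGG), the USF-type E-box (CACGTG), the AP-1 site (TGANTCA), the STAT site (TTCNNNGAA) and the core of the antioxidant response element (TGACNNNGC), searched on both strands. None of these matches overlapped in the windows shown. S100a6 held 1 CCAAT box, on the opposite strand and 228 to 224 bases before the start, S100a4 held 1 TATA box, 31 to 26 bases before it, and S100b held 2 CCAAT boxes. A CCAAT box stood in 33.8% and a TATA box in 12.4% of all 32851 promoter windows of this length. The STAT letters, found in 7.02% of windows, were in none of the 9 genes, and the AP-1 letters, found in 6.75%, were in S100a11 alone. A match is a description of the letters and not a site of binding.

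Nrl itself read 7.57 and 7.05 in the knockout against 8.21 and 8.13 in control on the log2 scale, a difference of −0.86 (SE 0.18, limma adjusted p = 0.289), and no source used here places its probes inside or outside the deleted part. Array medians lay between 5.99 and 6.04. The replicate number followed Xist, which silences one X chromosome in females. It read 4.07 (knockout) and 4.09 (control) in the replicate 1 pools but 10.66 and 10.47 in those of replicate 2. Kdm5d, a gene of the Y chromosome, ran the other way, at 8.06 and 8.12 in replicate 1 and 4.49 and 5.02 in replicate 2. By these genes the replicate 1 pools read as male and those of replicate 2 as female, which the labels do not state. Differences are therefore also given within each replicate number. Of all genes, 39 passed a limma adjusted p under 0.05, 27 higher and 12 lower in the knockout, and 0 passed without control replicate 1 or without control replicate 2, where 1355 and 1328 genes had an unadjusted p under 0.05.

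S100a6, calcyclin, had log2 levels of 8.83 and 9.17 in the knockout pools and of 7.24 and 7.09 in the control pools. Both knockout pools lay well above both controls, and the spread within each pair was small against the gap. The means were 9.0 ± 0.24 and 7.17 ± 0.10 (SD, n = 2 each), a log2 difference of 1.83 (SE 0.14), or 3.56-fold. The difference was 1.59 in the replicate 1 pools and 2.08 in the replicate 2 pools. It was the 4th highest of 19421 genes, which is how the gene came to be chosen. It was 1.66 without knockout replicate 2, 1.91 without control replicate 1 and 1.76 without control replicate 2, and in these fits of 3 arrays it was not among the called genes. The RNA came from whole retina. A changed share of RNA from each cell type and a changed amount of transcript per cell therefore cannot be told apart. This holds here and in every result that follows.

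**Figure D1:**
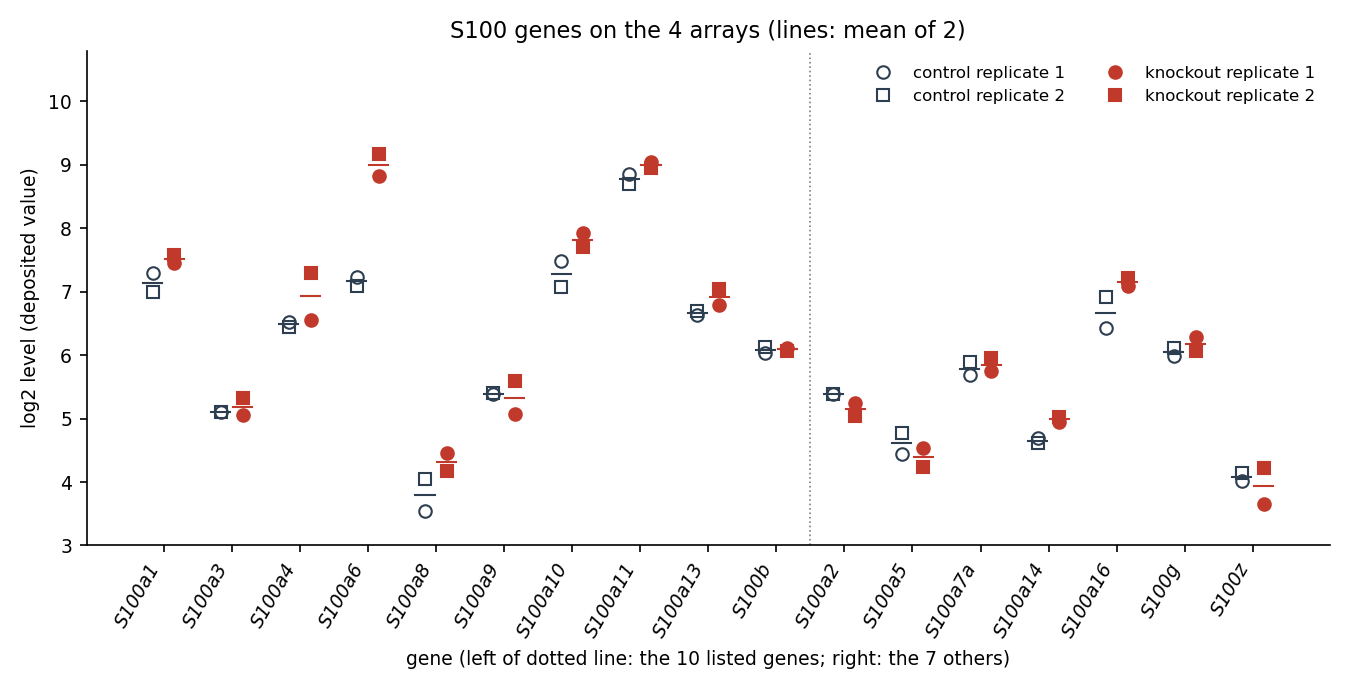
Deposited log2 level of each S100 gene on the 4 arrays (y axis), with open symbols for control and filled symbols for knockout pools, circles for replicate 1 and squares for replicate 2, and lines at the mean of 2. S100a6 stands at 8.83 and 9.17 in the knockout against 7.24 and 7.09 in control, and among the other genes S100a4 has a single high pool, knockout replicate 2 at 7.30.

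No paralog came near that size. S100a6 was chosen for its large difference, so a gap to its paralogs follows in part from the choice and is a description. The largest difference among the other 9 genes was that of S100a10, at 0.54, so the change in S100a6 exceeded it by 1.29 on the log2 scale, a 2.45-fold gap, and exceeded that of S100b by 1.82. Which paralog came next depended on single arrays: without knockout replicate 1 it was S100a4, at 0.82 against 0.43 for S100a10, and S100a8 stood at 0.67 against 0.65 without knockout replicate 2 and at 0.78 against 0.34 without control replicate 2. Of the 10 genes only S100a6 was called, against 0.139% of all genes called higher and 0.0618% called lower, and nothing is read from that count because S100a6 was singled out on this contrast. The other 9 had 0 calls by limma, with 3 higher and 0 lower at an unadjusted p under 0.05, where 3.71% of all genes were higher. Their median difference was 0.25 (0.13 without knockout replicate 2 and 0.37 without knockout replicate 1), with 8 above 0 and 1 below, while the median of all genes was 0.00 and 49.0% of them lay above 0. Among the 9, 6 had both knockout arrays above both controls, which held for 17.0% of all genes. The list was drawn up with results of these arrays known, so these counts are descriptions.

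S100a10, also called p11, is the member that has lost the ability to bind calcium and serves as the light chain of annexin A2. Its levels were 7.93 and 7.70 in the knockout and 7.48 and 7.08 in control. The groups did not overlap, but the lower knockout pool and the higher control pool lay close together. The log2 difference was 0.54 (SE 0.16, 95% interval 0.14 to 0.93, limma adjusted p = 0.562), with 0.45 and 0.63 in replicates 1 and 2. The interval is for this gene alone and is not adjusted for the number of genes, which holds for all intervals given here.

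S100a11, calgizzarin, pairs with annexin A1 in other tissues and lies beside S100a10 on the chromosome. Its brighter probe set read 9.04 and 8.95 in the knockout and 8.86 and 8.70 in control, a difference of 0.22 (SE 0.11, 95% interval −0.05 to 0.48, adjusted p = 0.774). All 4 values were high and the groups were separate by little. Its other probe set read 7.95 and 8.16 in the knockout and 8.01 and 8.13 in control, a difference of −0.02 (SE 0.12, 95% interval −0.30 to 0.27), and the intervals of the probe sets overlapped.

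S100a4, metastasin, binds non-muscle myosin and is made by motile and mesenchymal cells. It had levels of 6.56 and 7.30 in the knockout and 6.53 and 6.44 in control. Knockout replicate 1 sat next to the controls, and replicate 2 alone was high. The difference of 0.45 (SE 0.23, 95% interval −0.12 to 1.01, adjusted p = 0.783) was thus 0.03 in replicate 1 and 0.86 in replicate 2, and without knockout replicate 2 it was 0.08.

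S100a1, which in muscle binds the calcium pump and the ryanodine receptor, had levels of 7.46 and 7.58 in the knockout and 7.30 and 6.99 in control, a difference of 0.38 (SE 0.13, 95% interval 0.05 to 0.70, adjusted p = 0.645). The knockout pools lay above the controls, and without the low control replicate 2 the difference was 0.22. S100a13, which takes part in the export of FGF1 without a signal peptide, read 6.79 and 7.04 against 6.63 and 6.70, a difference of 0.25 (SE 0.12, 95% interval −0.04 to 0.54, adjusted p = 0.757). The knockout pools were again the higher ones, replicate 1 by little.

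S100b, the astrocyte marker of the family, did not follow S100a6. It had levels of 6.12 and 6.06 in the knockout and 6.03 and 6.13 in control, and the groups overlapped. Its difference was 0.02 (SE 0.10, adjusted p = 0.991), and the 95% interval ran from −0.23 to 0.26. S100a3, known from the hair cuticle, read 5.05 and 5.32 against 5.10 in both controls, a difference of 0.09 (SE 0.12, 95% interval −0.21 to 0.39, adjusted p = 0.950), with overlapping groups.

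Neither calprotectin gene was called, and the difference between the pair was not tested. S100a8 had levels of 4.46 and 4.17 in the knockout and 3.54 and 4.05 in control, a difference of 0.52 (SE 0.19, 95% interval 0.05 to 0.99, adjusted p = 0.655), which was 0.92 in replicate 1 and 0.12 in replicate 2. The groups did not overlap, control replicate 1 was the lowest pool, and without it the difference was 0.27. S100a9, its partner, read 5.07 and 5.59 in the knockout and 5.39 and 5.40 in control. Its knockout pools lay on either side of the controls, and the difference was −0.06 (SE 0.18, 95% interval −0.50 to 0.37, adjusted p = 0.982). S100a8 was dim: its mean lay at the 9.49th percentile of all genes, and without detection values its signal could be background. Brightness also depends on the probes, so levels of different genes are not set against each other.

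**Figure D2:**
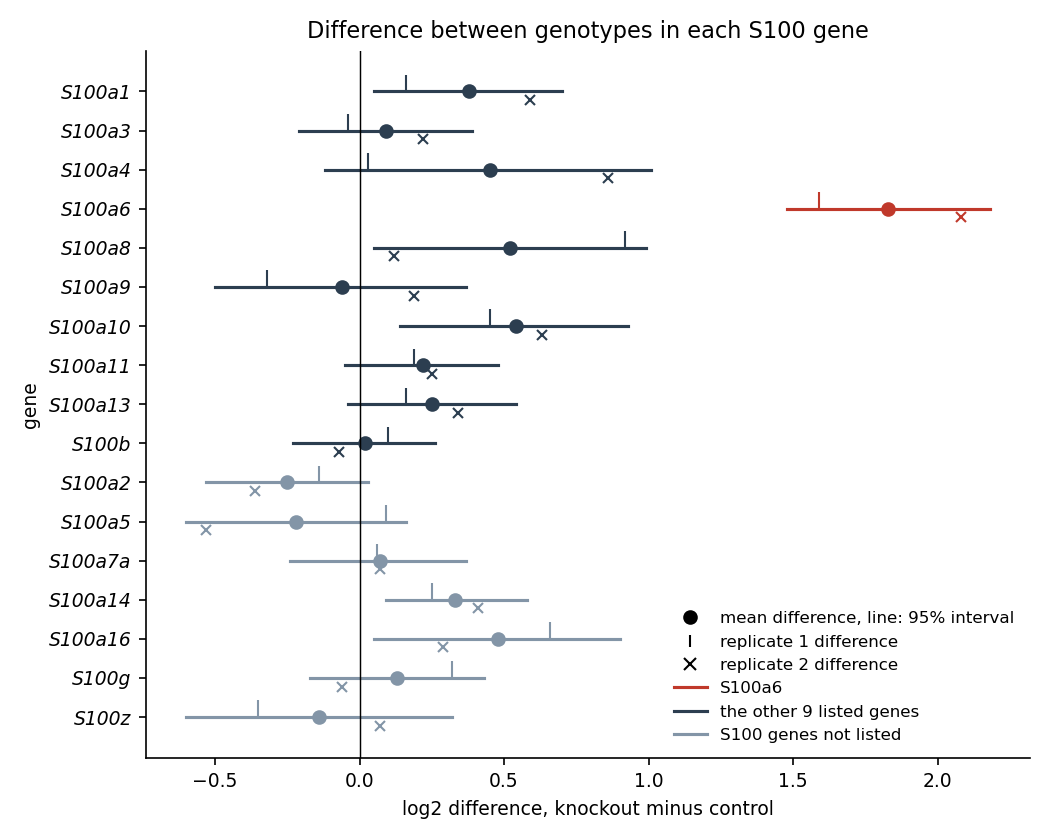
Log2 difference of knockout minus control (x axis) for the 17 S100 genes, with circles for the mean, lines for the 95% interval of limma, and bars and crosses for the differences within replicates 1 and 2. S100a6 lies at 1.83, apart from the others, which run from −0.25 for S100a2 to 0.54 for S100a10.

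The 7 S100 genes outside the set had a median difference of 0.07, with 0 called by limma and 2 higher and 0 lower at an unadjusted p under 0.05. S100a16, a broadly expressed member, read 7.09 and 7.21 in the knockout and 6.43 and 6.92 in control, a difference of 0.48 (SE 0.17, adjusted p = 0.653). S100a14, an epithelial member, read 4.95 and 5.02 against 4.70 and 4.61, a difference of 0.33 (SE 0.10, adjusted p = 0.562). Both had their knockout pools above their controls. S100a2, S100a5 and S100z had differences of −0.25, −0.22 and −0.14, S100a7a 0.07 and S100g, the vitamin D-dependent calbindin of the gut, 0.13, with adjusted p between 0.747 and 0.972 for these 5. Of them S100a2 alone had groups that did not overlap, with the knockout below. S100z, S100a5 and S100a14 were dim as well, with means at percentiles 9.11, 14.6 and 19.3 of all genes.

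The genes beside S100a6 on chromosome 3 did not share its difference. In the RefSeq order of GRCm38.p6, used here for order alone, S100a6 sits between S100a5, at −0.22, and S100a7a, at 0.07, both with overlapping groups, and the next genes out are S100a4, at 0.45, and S100a8, at 0.52. From S100a1 to S100a10, the outermost S100 genes there, stood 70 protein-coding genes, of which 59 were measured. The 45 that are not S100 genes encode mainly cornified envelope proteins of skin, such as loricrin and the late cornified envelope and small proline-rich proteins. They had a median of 0.01 and ran from −0.34 (Lce3e) to 0.32 (Lce1c), with 0 called by limma and 1 higher and 0 lower at an unadjusted p under 0.05. Both knockout arrays lay above both controls in 8 of the 45, near the 17.0% of all genes, and in 9 of the 14 S100 genes of the region, a count that includes S100a6 and is a description.

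**Figure D3:**
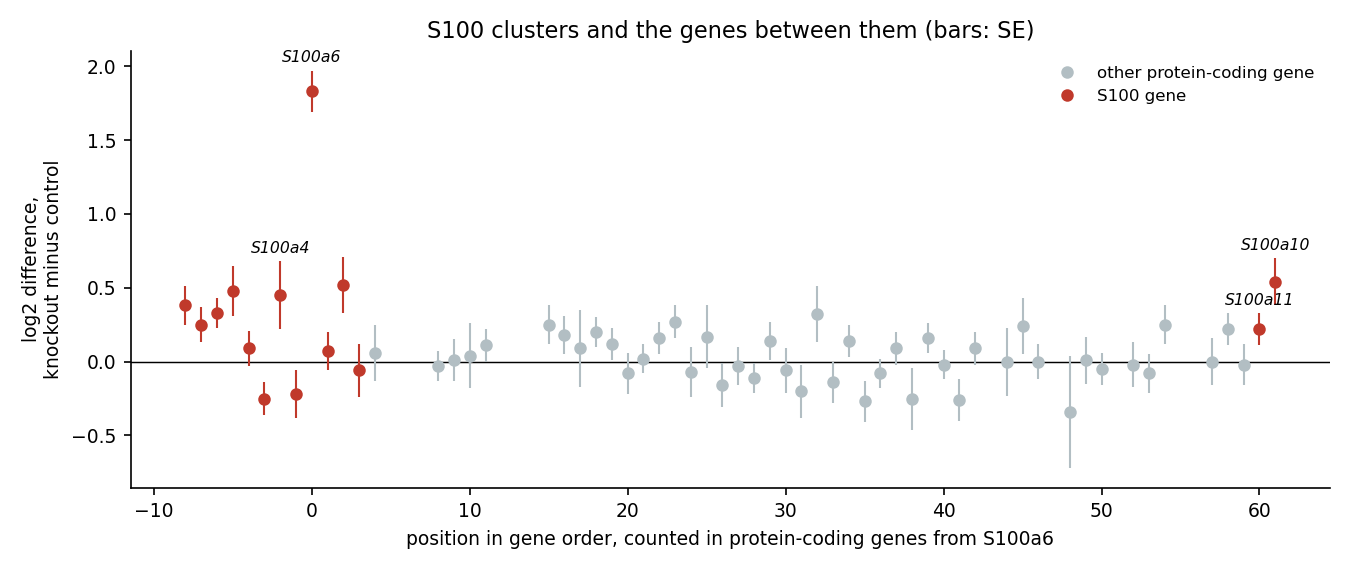
Log2 difference of knockout minus control (y axis, bars are SE) for the 59 measured genes between the outermost S100 genes of chromosome 3, placed by their order counted from S100a6. S100a6 stands alone at 1.83 between neighbours at −0.22 and 0.07, and the genes between the S100 clusters run from −0.34 to 0.32.

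Genes of proteins that S100 members bind differed little. Of 18 measured partners 0 were called by limma. Their median was −0.06, and 2 were higher and 0 lower at an unadjusted p under 0.05. The 2 with the smallest p were Syt1, the calcium sensor of synaptic vesicles and a partner of S100A13, at 0.28 (SE 0.11, adjusted p = 0.656), and Myh9, the non-muscle myosin that S100A4 binds, at 0.26 (SE 0.11, adjusted p = 0.700). The partners best known for S100A6 are named for that role and not by the rule: Cacybp, the calcyclin-binding protein, had −0.17 (SE 0.11, adjusted p = 0.850), Sugt1 −0.10 (SE 0.10, adjusted p = 0.917) and Anxa11 −0.22 (SE 0.17, adjusted p = 0.874). Cacybp read 9.27 and 9.23 in the knockout and 9.51 and 9.32 in control, so it lay lower where S100a6 lay higher, by an amount that did not pass. On the same ground Anxa2 and Ahnak, which form a complex with S100A10 at the membrane, had 0.16 (SE 0.12) and 0.12 (SE 0.12), and Anxa1, the partner of S100A11, had −0.33 (SE 0.26).

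The 7 other annexins had a median of 0.07, with 0 called and 0 at an unadjusted p under 0.05 in limma; Anxa4 and Anxa8 had 0.18 and 0.19. Among 7 receptors for released S100 proteins 0 were called by limma. Their median was −0.04, and 1 was lower and 0 higher at an unadjusted p under 0.05. The scavenger receptor gene Cd36 had −0.32 (SE 0.13, adjusted p = 0.705) and Tlr4, a receptor of calprotectin, 0.33 (SE 0.16, adjusted p = 0.771). Both were dim, with means at percentiles 13.4 and 12.7 of all genes. Ager, which encodes RAGE and is named for its role, read 6.65 in both knockout pools and 6.60 and 6.77 in control, with overlapping groups. The 5 measured genes that fuse an S100 domain to long repeats had a median of 0.00 and 0 calls, also at an unadjusted p under 0.05, with Tchh, trichohyalin, at 0.22 and Flg2, filaggrin 2, at 0.25.

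Calcium sensors of retinal neurons share the EF hand with the S100 family. Of 20 measured, 15 had differences below 0 and 5 above, with a median of −0.14, 0 called by limma and 2 lower and 0 higher at an unadjusted p under 0.05 (3.37% of all genes were lower). Both knockout arrays were below both controls in 10 of the 20, against 18.4% of all genes. Cabp4, of the photoreceptor terminal, had −0.44 (SE 0.12, adjusted p = 0.464), and Calb1, calbindin of horizontal and other inner retinal cells, had −0.37 (SE 0.10, adjusted p = 0.475).

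**Figure D4:**
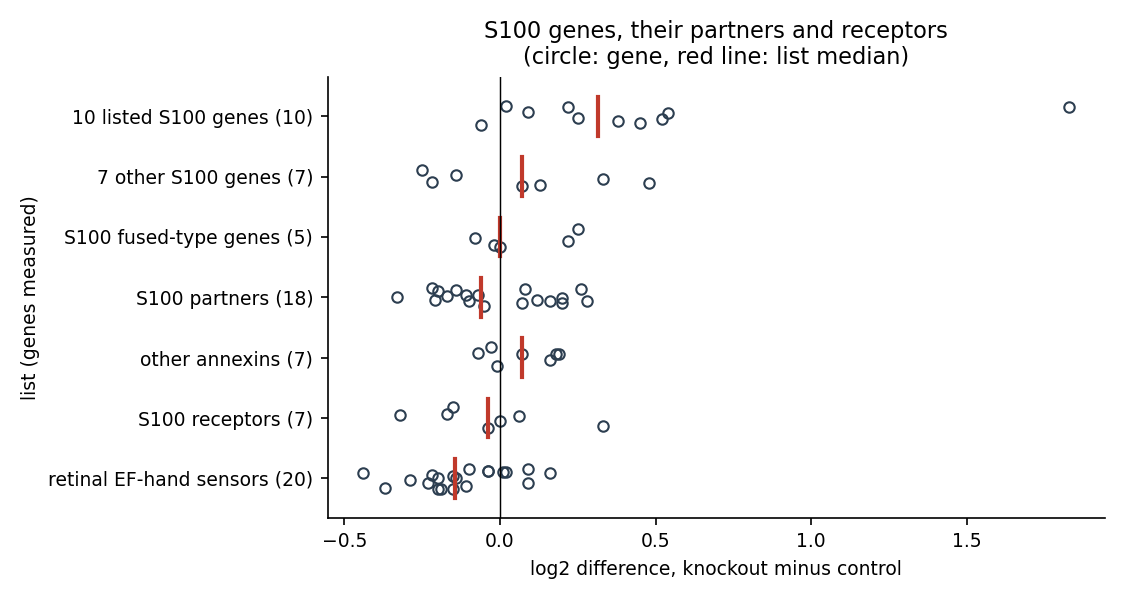
Log2 difference of knockout minus control (x axis) for each measured gene (circles) of the lists of S100 genes, partners, receptors and other EF-hand sensors, with the list median in red. The median is 0.31 for the 10 S100 genes with S100a6 included, −0.06 for the partners, −0.04 for the receptors and −0.14 for the retinal sensors.

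Markers of other cells differed between the genotypes as well, and their part in the S100 values was not tested. Over all genes, 17.0% had both knockout arrays above both controls and 18.4% had both below. By limma 0.139% of all genes were called higher and 0.0618% lower. The summed linear signal of 9 microglial markers was 1191 and 1111 in the knockout and 618 and 607 in control, with 7 of 9 higher on both knockout arrays, and Ctss and Tyrobp, a lysosomal protease and a myeloid adaptor, were called higher at 1.53 and 1.12. The 7 microglial markers not called summed to 429 and 413 against 323 and 335, with 6 above 0, and Tmem119, a marker of resident microglia named after its value was seen, had −0.40 (SE 0.10, adjusted p = 0.403), both knockout arrays below both controls. The sum of 5 astrocyte markers was 624 and 671 against 510 and 530, with 3 of 5 higher on both knockout arrays. Among these were Gfap, the glial filament, at 0.70 (SE 0.15, limma adjusted p = 0.317) and Slc1a2, a glutamate transporter, at 0.39. The remaining markers were near 0: Aldh1l1 had 0.08, and Pax2 and Pdgfra had 0.05 and 0.09 with overlapping groups. The higher sum is thus not shared evenly by the list, and no change in astrocytes is read from it. Slc1a2 was the brightest of the 5, at 8.62 and 8.73 against 8.30 and 8.27, so it weighs most in the linear sum. The sums of 10 Müller glia markers, 2306 and 2214 against 2211 and 2101, were close to control; Vim, vimentin, had 0.56 (SE 0.10, adjusted p = 0.219) and Glul, glutamine synthetase, −0.37. The 7 rod markers summed to 7343 and 7442 against 16597 and 15966, all 7 lower on both knockout arrays, with Gnat1 and Rom1 called at −3.01 and −1.24. Cone markers summed to 5564 and 5387 against 4819 and 4254, with Gnat2, the cone transducin subunit, called higher at 1.10. Pde6c had 0.87 (SE 0.10, limma adjusted p = 0.0616), with both knockout arrays above both controls. The cone list was mixed, with 3 of 7 markers above 0 and 4 below and a median of −0.14; Opn1sw and Opn1mw, the opsin genes, named after their values were seen, had −0.52 and −0.22 (adjusted p = 0.281 and 0.793), with both knockout arrays below both controls. With the replicate block, or without either knockout replicate, the calls of the microglial and cone lists fell to 0 and those of the rod list from 2 to 1.

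Beside the calprotectin genes, lists of neutrophil and infiltrating monocyte markers were read. The cell source of the S100a8 and S100a9 signal was not tested. The 12 neutrophil markers summed to 401 and 412 in the knockout and 365 and 389 in control. Of the 12, 4 were above on both knockout arrays, which held for 17.0% of all genes. By limma 0 were called and 0 had an unadjusted p under 0.05. Lcn2, lipocalin 2, which glia also make, had 0.46 and Mmp8, a neutrophil collagenase, 0.16, while Ly6g, the defining marker, read 3.95 and 4.00 against 3.65 and 4.14, with overlapping groups. The 5 monocyte markers summed to 122 and 136 against 120 in both controls, with 0 called, 0 at an unadjusted p under 0.05 and a median of −0.04. Plac8 and Lyz2 had 0.20 and 0.38, and the other 3, Ccr2, Cd14 and Itgam, lay between −0.10 and −0.04. Some of these markers were as dim as S100a8. The means of Ly6g, Mmp8, Ccr2 and Plac8 lay between the 3.45th and 8.42th percentile of all genes, so their signal could also be background. Lists for endothelium, pericytes, fibroblasts, pigment epithelium, lens and surface epithelium had medians between −0.08 and 0.08 and 0 calls. The 1 measured erythrocyte gene, Alas2, had −0.12. At an unadjusted p under 0.05 limma had 2 of these genes lower, Crygs of the lens and Krt14 of surface epithelium. All 6 pigment epithelium markers were below 0, with overlapping groups. They summed to 1544 and 1584 in the knockout and 1970 and 1542 in control. Control replicate 1 alone stood higher, and the cause was not tested.

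**Figure D5:**
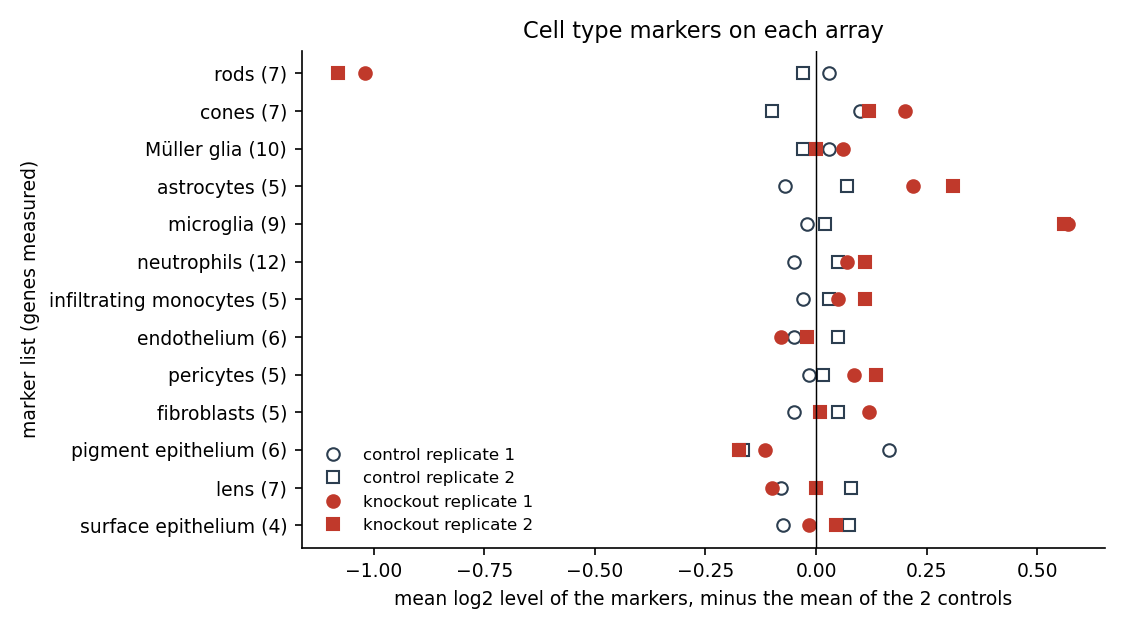
Mean log2 level of each cell type's markers on the 4 arrays, minus the mean of the 2 controls (x axis), with open symbols for control and filled symbols for knockout. The means of microglial and astrocyte markers lie to the right in both knockout pools, and that of rod markers far to the left. Among the astrocyte markers, Pax2, Pdgfra and Aldh1l1 had differences of 0.05, 0.09 and 0.08. The neutrophil means lie near the controls, at 4.87 and 4.91 against 4.75 and 4.85.

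The genes whose values over the 4 arrays ran most like those of S100a6 were not S100 genes. Likeness was the root mean square difference between array values after centring each gene on its mean. The 5 nearest were Tceanc2 at 0.161, Lrrc2 at 0.167, Sox30 at 0.195, and Clca1 and Ccdc175 at 0.218 each. Sox30 read 7.27 and 7.61 in the knockout and 6.03 and 5.96 in control, with knockout replicate 1 below knockout replicate 2, as in S100a6. Lrrc2 read 9.37 and 9.40 against 7.70 and 7.78. For Tceanc2 this holds for the probe set used, at 8.17 and 8.60 against 6.51 and 6.79, while its other probe set had a difference of −0.01. The nearest S100 gene was S100a10, at 0.68, in the 185th place, and S100b lay at 0.92. With 4 arrays, likeness rests mainly on a similar size of difference between the genotypes.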

How the data were processed

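The values analysed are the log2 levels that the authors deposited, for 21897 probe sets on each of 2 knockout and 2 control arrays. Affy and limma are named in the submitters' processing notes, with neither version nor role. How background and normalization were handled is not stated there, and the log2 scale was taken from the range of the values. The platform annotation gave 20877 probe sets 1 symbol, 175 several and 845 none, and symbols were checked through gene IDs against RefSeq (GRCm38.p6; 36 IDs not matched, 0 changed). Only probe sets with 1 symbol were used, and the one with the highest mean stood for each of 19421 genes. Dim genes were kept. The genotype comparison used lmFit and eBayes of limma 3.58.1 under R 4.3.3 (genotype only, two-sided, Benjamini-Hochberg over all genes). Genes were called at an adjusted p under 0.05. Only the limma fit was tested on simulated arrays, which had independent errors and no replicate effect. SE and intervals are limma's moderated ones. An exact permutation test of 2 against 2 arrays cannot pass 0.05, and the number of arrays limits the precision. Replicates are pools of different animals, so p-values rest on the spread between pools. For each gene limma draws that spread toward the one shared by all genes. Each genotype had 1 pool with low and 1 with high Xist. In the genotype-only fit the spread between pools therefore includes whatever differs with Xist and Kdm5d, that is, with sex as read from these genes. The replicate block takes out what differs with the replicate number, sex included.

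The members and lists were chosen with earlier results of these data known. Named were Nrl, all S100 genes, genes of the S100 region and the 5 genes most like S100a6. From each list at most 4 called genes were named, or else the 2 of smallest p. Others are named for their role or, as Xist, Kdm5d and the extremes of a range, after their values were seen. Alternatives were quantile normalization, a filter on dim genes, the mean of a gene's probe sets, a variance trend, the replicate number as a block and leaving out each array.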

Additional observations from a re-analysis of the deposited data

How the results depend on the processing

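S100a6 kept its direction under all 9 alternatives, between 1.66 and 2.0, and 0 other members were called under any. Its place among the called genes was lost with the replicate block (0 members called), without knockout replicate 2 and without either control replicate; with 1 array left out, 0 to 1 members were called. Over all genes 39 were called, against 89 after the dimmer genes, below the 50th percentile of mean level, were left out, 128 with a variance trend, 8 with the replicate block, and 0 to 11 with 1 array left out. The 0 calls without control replicate 1 or 2 stood beside 1355 and 1328 genes at an unadjusted p under 0.05, and the array left alone in a group was assumed to vary like the others. The labels do not say that replicate numbers pair the pools; deviations of same-numbered pools correlated at 0.239 over all genes and 0.427 over those above the 50th percentile of mean level.

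Signs turned in genes near 0. S100b was −0.003 after quantile normalization. With 1 array left out, S100b ran from −0.04 to 0.07, S100a9 from −0.33 to 0.20, S100a3 from −0.04 to 0.22, S100a7a from −0.04 to 0.17 and S100z from −0.42 to 0.14. The filter on dim genes left 7 of the 10 members, and S100a11 was 0.10 with the mean of its probe sets. The cause of these shifts was not tested.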
